A study of Mus musculus with 14 samples.

Results

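The Hand1 and Hand2 loci were examined for binding of PRDM16, a zinc-finger transcription factor, in ventricles of E13.5 mouse embryos, by ChIP-seq (sequencing of DNA that an antibody pulls down with the protein). The members are the PRDM16 peaks of wild-type (WT) ventricles whose summit has Hand1 or Hand2 as its nearest protein-coding gene, by distance to the gene body in GRCm38. This rule gave 13 of 17587 WT peaks, of which 1 belongs to Hand1 and 12 belong to Hand2. The samples used were 1 PRDM16 ChIP library of Prdm16cKO (Prdm16 conditional knockout) whole ventricles, 2 libraries of WT whole ventricles, 2 of WT right ventricle (RV) and 2 of WT left ventricle (LV), each group with as many input libraries, all of strain C57BL/6. Atria had been removed. A whole-ventricle sample pooled 3 hearts, and an RV or LV sample pooled 10 to 12 ventricles. The sources used here give neither the Cre driver of the conditional knockout nor the share of cells that still carried PRDM16. WT samples carry the label Mock for genetic manipulation. Reads inside WT peaks numbered 267808 to 281797 per RV library and 184244 to 330443 per LV library. The limma p-values below compare 2 pools of tissue per ventricle. In limma, a linear model, the variance of a region is drawn in part from all regions. The test behind the p-values of the authors' deposited table is not known.

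HAND1 and HAND2 are basic helix-loop-helix (bHLH) factors that bind DNA as dimers with E proteins, at sites called E-boxes. In the embryonic mouse heart Hand1 is expressed mainly in the left ventricle and the outflow tract. Hand2 is expressed in the second heart field and the right ventricle, and also in endocardium and epicardium, and its loss leaves a very small right ventricle. Hand2os1 (also called Upperhand) and Hdnr (Handsdown) are long noncoding RNA (lncRNA) genes on either side of Hand2.

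The Hand2 promoter is the one stretch under a peak of these loci whose sequence was at hand. The peak at chr8:57320708-57321071 (GRCm38) covered all 250 bases before the annotated Hand2 start, and its summit at 57320888 lay 95 bp before that start. It also covered the start of Hand2os1, which is transcribed away from Hand2 on the minus strand from 57320859, so that the summit lay between both starts, 29 bp from that of Hand2os1. The sequence, from RefSeq (GRCm38.p6, chr8:57320733-57320982, plus strand, 5′ to 3′), is shown because binding was measured on it, with motif matches on either strand in capitals.
Hand2 promoter: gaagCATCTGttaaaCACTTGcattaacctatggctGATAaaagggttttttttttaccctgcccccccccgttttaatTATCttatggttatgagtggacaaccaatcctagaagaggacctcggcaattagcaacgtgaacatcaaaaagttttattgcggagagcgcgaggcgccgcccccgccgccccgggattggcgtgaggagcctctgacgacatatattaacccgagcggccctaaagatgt
Motifs searched on both strands were the E-box (CANNTG), the motif GATA, the T-box motif AGGTGT, the NKX2-5 motif AAGTG, the TEAD motif GGAATG and the SMAD motif CAGAC. The E-box occurred at 2 places, starting 246 and 235 bases before the start, and 66.2% of the 32851 promoters in the RefSeq table hold at least 1 in the same 250 bases. GATA occurred at 2 places, starting 214 and 171 bases before the start (53.6% of promoters hold it), and AAGTG at 1 place, on the minus strand within the second E-box (40.7%). AGGTGT (11.8% of promoters), GGAATG (12.6%) and CAGAC (42.2%) are not in this window. All matches thus lay farther from the start than the summit did.

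Hand1 carried 1 strong peak outside the gene, and Hand2 carried a spread of weaker ones. The Hand1 peak lay on chromosome 11 at 57847449 to 57848017, with its summit 15574 bp from the gene on the side of higher coordinates (Hand1 at 57828713 to 57832147). No annotated gene overlapped it, and the lncRNA gene Gm32915 was nearest of all gene types, at 6043 bp. Its fold enrichment, the ratio of ChIP to background as the authors' peak caller gave it, was 7.82 with a -log10 q of 21.7. It ranked 1183 among the 17587 WT peaks by fold enrichment, whose median was 4.0. The next protein-coding genes were Sap30l, 37106 bp from the summit, and, on the far side, Larp1. No WT peak lay at the Hand1 gene itself.

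The 12 Hand2 peaks had fold enrichments of 2.90 to 5.30 with a median of 4.02, near that of all WT peaks, and 2 of 12 reached 5, as did 26.1% of all WT peaks. The Hand2 gene (chromosome 8, 57320983 to 57324517) stands in a stretch poor in protein-coding genes, with 727044 bp to Fbxo8 at lower coordinates and 131365 bp to Scrg1 at higher ones. The sequence nearest to Hand2 spans 433 kb and held 2.77 peaks per 100 kb, that nearest to Hand1 spans 83.1 kb and held 1.2, and the genome between the first and last protein-coding genes of the chromosomes held 0.651. Of 7083 genes with a WT peak, 110 had 12 or more. Upstream of Hand2, at lower coordinates, lay 7 summits and downstream 5.

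Peaks stood at the ends of the lncRNA genes beside Hand2. The promoter peak was the strongest (fold enrichment 5.30, -log10 q 16.5). A peak at 57331703 to 57332464, the widest of the 12 at 762 bp, had the next fold enrichment (5.11). It covered the lower-coordinate end of Hdnr, and its summit lay 7312 bp downstream of Hand2. This summit stood inside the lncRNA gene Gm34030, 138 bp from the end of that gene and 606 bp from the end of Hdnr. A summit in the peak at 57353920 to 57354224 (3.98) lay inside Hdnr, 568 bp from its other end, and one in the peak at 57303651 to 57304001 (4.51) lay 317 bp outside the lower-coordinate end of Hand2os1. In all, 4 of 12 Hand2 summits lay no more than 1000 bp from either end of a gene that is protein-coding or lncRNA, against 20.6% of all WT peaks (1 of 12 against 16.4% with protein-coding genes alone), a difference that was not tested. Between Hand2 and Hdnr stood 2 further peaks at 57327894 to 57328094 (2.90) and 57328535 to 57328905 (3.38), and beyond Hdnr 1 at 57361495 to 57361660 (3.55).

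Farther upstream, 5 summits lay 106930 to 210013 bp from Hand2, where the files annotate no gene under any of them. Of these, 4 stood within 22715 bp of each other, with fold enrichments of 4.59, 3.04, 4.06 and 4.98 in order of coordinate. The farthest, at 57110841 to 57111226, had 2.99. These 5 were assigned to Hand2 because no other protein-coding gene is nearer, and the files hold no measure of contact between them and the gene.

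**Figure D1:**
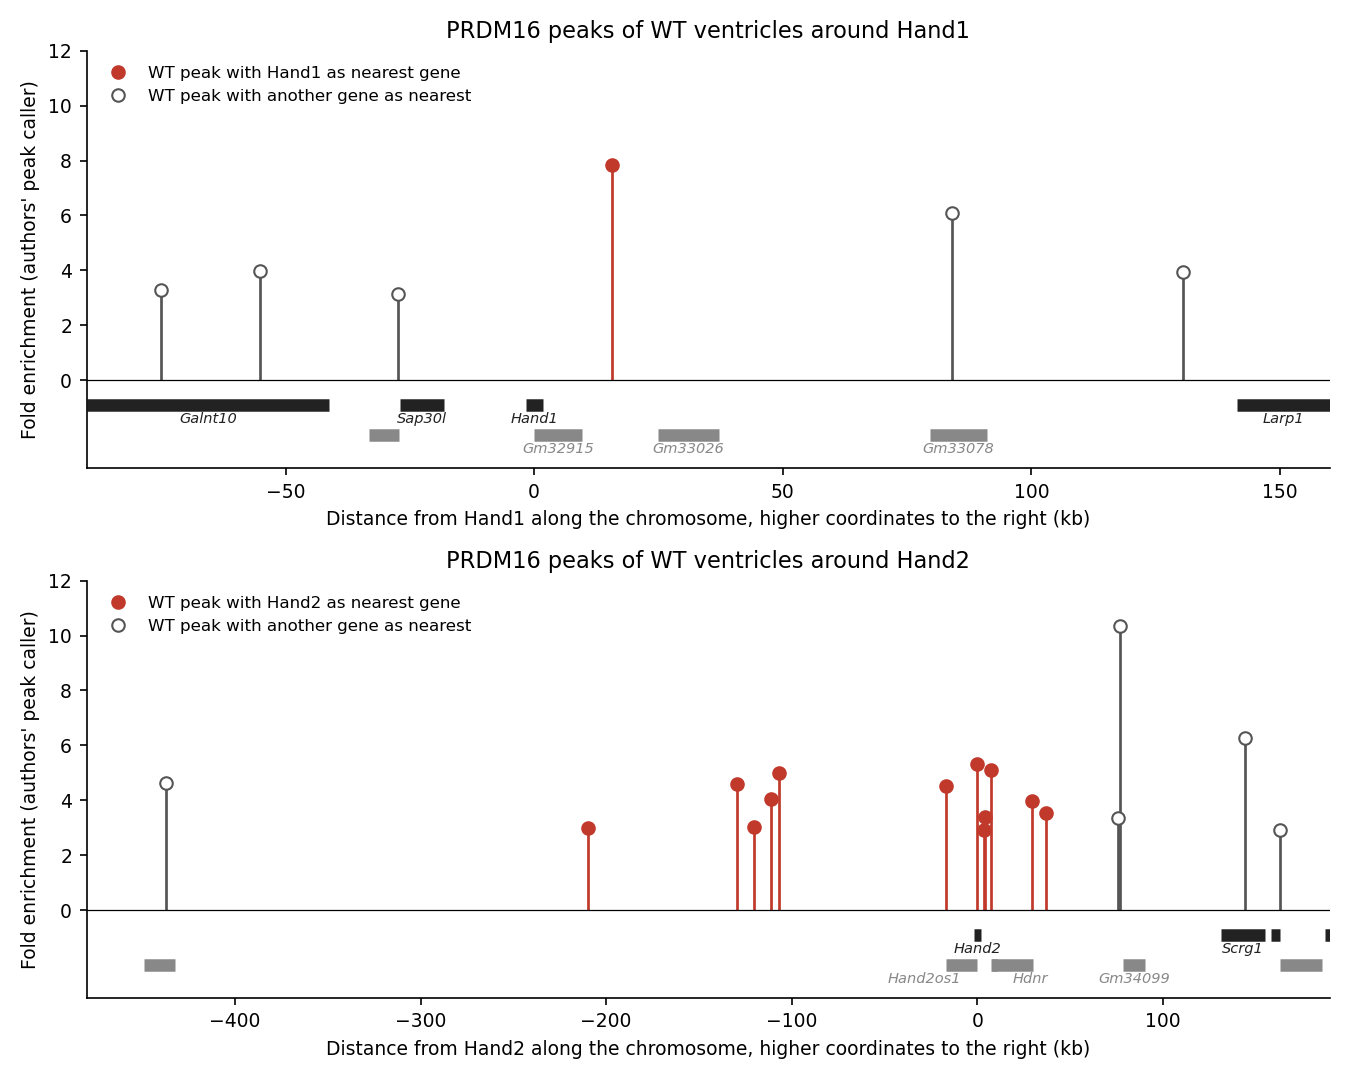
Fold enrichment of WT PRDM16 peaks (vertical axis, authors' peak caller) against distance of the summit from Hand1 (top) and Hand2 (bottom) in kb; filled points are peaks assigned to the gene, open points are assigned to other genes, and bars below mark protein-coding (black) and lncRNA (grey) genes. The Hand1 locus has a single filled point at 7.82, while the Hand2 locus has 12 between 2.90 and 5.30 and an open point at 10.3 just beyond the assignment limit.

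The assignment to the nearest gene left out some peaks close to its limit. Reads below are normalized, that is, scaled by the authors' factor for each library. The strongest peak between Hand2 and Scrg1, at 57400991 to 57401863 on chromosome 8, had a fold enrichment of 10.3, higher than any Hand2 peak. Its summit was 54467 bp from Scrg1 and 76898 bp from Hand2, so that it was assigned to Scrg1, as was a weaker one beside it (3.34). It had 59.8 and 64.6 normalized reads in RV, against 58.8 and 41.0 in LV, and its limma log2 RV over LV was 0.33 (SE 0.320, adjusted p = 0.913). The farthest peak inside the limit on this side was 37031 bp from Hand2 (3.55). On the other side of the Hand2 locus the nearest summit outside the limit was 437265 bp from Hand2 and was assigned to Fbxo8 (4.63). At the Hand1 locus the nearest outside were a peak by Sap30l (3.12, 27447 bp from Hand1) and a peak inside the lncRNA gene Gm33078 assigned to Larp1 (6.07, 84059 bp from Hand1). Other protein-coding neighbours had 2 peaks in all at Galnt10, 1 at Sap30, and 0 at Mfap3, Gm12248, Cnot8, Hpgd, Cep44 and Hmgb2.

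Knockout against WT ventricles served as the control of the antibody. The knockout list held 330 peaks and the WT list 17587. At the Hand loci the knockout list held 0 peaks: 0 of the 13 WT peaks overlapped a knockout peak by 1 bp or more, against 1.12% of all WT peaks, so that a count of 0 of 13 is near the background. The nearest knockout peak was 671 kb from the Hand1 peak and 12412 kb from any Hand2 peak, with 16 knockout peaks on chromosome 11 and 11 on chromosome 8. The 13 are all WT peaks of these loci and 12 of them belong to Hand2. They cannot be taken as independent, and no limit was put on the share. The knockout list comes from 1 library, so that the difference was not tested, and the lists give no signal level of the knockout at the Hand peaks.

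RV against LV asked whether binding at these regions differed between the ventricles. PRDM16 signal at the Hand1 region was lower in RV, and values of the Hand2 regions did not differ past the threshold. The Hand1 region had 5.20 and 7.72 normalized reads in RV libraries A and B, against 26.8 and 36.6 in LV libraries A and B (6 and 8 reads in RV, 36 and 25 in LV). Both RV libraries were below both LV libraries, as at 17.9% of all regions, with means of 6.46 ± 1.78 in RV and 31.7 ± 6.95 in LV (SD, n = 2 pools each). In a limma fit across all 17587 regions, on the log2(normalized reads + 1) scale, the log2 RV over LV was -2.14 (SE 0.388, 95% interval -2.93 to -1.35, adjusted p = 0.0186, Benjamini-Hochberg), which corresponds to a signal 4.40-fold higher in LV (interval 2.54 to 7.61).

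This was 1 of 5 regions, or 0.0284% of all, called lower in RV by limma, while 0% were called higher in RV. The split over all regions hung on the setting, with 17 lower and 73 higher in RV without LV library A, 14 lower and 8 higher without LV library B, and 0 with RV library A or RV library B left out. The Hand1 region ranked 3 by its limma p-value. In the authors' deposited table its values, which include an offset of 0.5, were 6.96 in RV and 32.2 in LV with a log2 RV over LV of -2.21 (5.24% of all regions had -1 or lower) and an unadjusted p of 0.00108, the fifth smallest. The adjusted p in the authors' deposited table was 1.0, where 0% of regions passed 0.05, 0.341% were lower in RV at an unadjusted p under 0.05 and the smallest adjusted p was 0.444. Among the 2767 regions with at least as many reads as the Hand1 region, 4 including it had a log2 difference in the authors' deposited table as low or lower. The call did not hold without RV library A (log2 -1.89, limma adjusted p = 0.981), without RV library B (-2.38, 0.992), without LV library B (-1.92, 0.0917) or at a pseudocount of 0.1 (-2.29, 0.125), and it held without LV library A (-2.36, 0.00171). In pooled ventricles, fewer cells with bound PRDM16 and less binding per cell cannot be told apart.

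**Figure D2:**
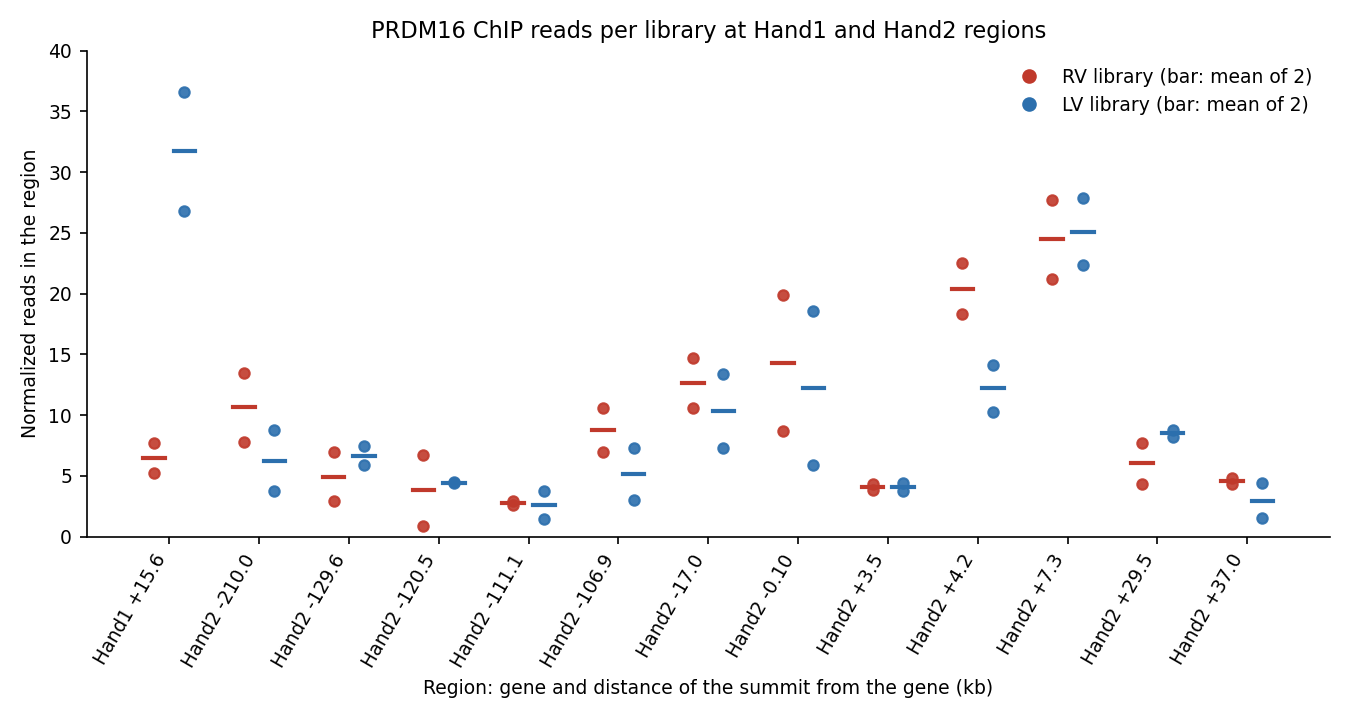
Normalized reads (vertical axis) in each RV library (red, left of each pair) and LV library (blue, right) at the Hand1 region and the 12 Hand2 regions, ordered by coordinate and named by the distance of the summit from the gene in kb; bars are means of 2 libraries. At Hand1 the RV libraries lie at 5.20 and 7.72, below the LV libraries at 26.8 and 36.6, while the values of most Hand2 regions overlap between the ventricles.

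Peaks around Hand1 gave smaller differences. The peak in Gm33078 had 7.79 and 3.86 normalized reads in RV, against 12.7 and 10.3 in LV (limma log2 -0.92, SE 0.491, adjusted p = 0.800). The next peak towards Larp1 had 8.66 and 10.6 in RV, against 2.98 and 5.86 in LV (1.02, SE 0.538, limma adjusted p = 0.800). The peak by Sap30l had 4.33 and 15.4 in RV, against 12.7 and 8.79 in LV (-0.30, SE 0.494, limma adjusted p = 0.963). A peak inside Galnt10, 55191 bp from Hand1, had 7.79 and 7.72 in RV, against 8.93 and 10.3 in LV (-0.27, SE 0.463, limma adjusted p = 0.964). None of these 4 passed the threshold, and 3 of them had values below 0. The difference between the Hand1 region and its neighbours was not tested.

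At the Hand2 promoter, values differed more within a ventricle than between ventricles. It had 19.9 and 8.68 normalized reads in RV libraries A and B, against 18.6 and 5.86 in LV libraries A and B. In each ventricle library A, the letter given to the smaller scaling factor, was the higher. The letters do not pair libraries across ventricles. The groups overlapped (limma log2 0.30, SE 0.470, 95% interval -0.66 to 1.25, adjusted p = 0.961). Leaving out 1 library moved this log2 to -0.26 without RV library A, 0.85 without RV library B, 1.05 without LV library A and -0.46 without LV library B. The data therefore give no direction for the promoter.

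The peak at the lower-coordinate end of Hdnr held most reads of all Hand2 regions, with 27.7 and 21.2 normalized reads in RV, against 22.3 and 27.8 in LV. Its limma log2 RV over LV was -0.04 (SE 0.337, adjusted p = 0.995), and its 95% interval of -0.73 to 0.65 was the narrowest among the Hand2 regions. The region 4227 bp downstream of Hand2 had 22.5 and 18.3 in RV, against 14.1 and 10.3 in LV. Here both RV libraries were above both LV libraries, as at 17.6% of all regions, and the limma fit gave a log2 of 0.71 (SE 0.375, interval -0.06 to 1.47, adjusted p = 0.800). It was the lowest adjusted p of a Hand2 region. In the peak inside Hdnr the order was the other way, with 4.33 and 7.72 in RV, against 8.19 and 8.79 in LV (both RV libraries below both LV libraries, as at 17.9% of all regions; log2 -0.48, SE 0.514, limma adjusted p = 0.929).

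The other Hand2 regions held between 3.0 and 12.75 reads per library on average, where the median of all regions was 8.25. At the lower-coordinate end of Hand2os1 there were 14.7 and 10.6 normalized reads in RV, against 13.4 and 7.33 in LV. The farthest upstream region averaged 10.6 ± 4.04 in RV, against 6.26 ± 3.58 in LV (SD, n = 2 pools each), and the nearest of the far upstream group, at 106930 bp, had 6.93 and 10.6 in RV, against 2.98 and 7.33 in LV. These 3 regions had limma log2 values of 0.30, 0.73 and 0.74, with adjusted p of 0.957, 0.860 and 0.872, and in each of them the libraries of the ventricles overlapped. With 1 library left out these values ran from -0.09 to 0.70, from 0.21 to 1.26 and from 0.20 to 1.27. The remaining 5 regions had means of 2.75 to 4.91 normalized reads in RV and 2.59 to 6.65 in LV. Only 5 of the 12 Hand2 regions had a mean of at least 8 reads per library. SEs of the 12 log2 values ran between 0.337 and 0.755. At any of the 12, a 2-fold difference was thus unlikely to pass the limma threshold.

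Of the 12 Hand2 regions, 0 were called by limma in either direction, with adjusted p of 0.800 to 0.998, where 0.0284% of all regions were called lower and 0% higher in RV. At an unadjusted p under 0.05 there were also 0 of 12 by limma, against 6.32% of all regions, and 0 of 12 in the authors' deposited table, against shares of all regions of 0.341% (lower in RV) and 0.142% (higher). In the authors' deposited table the log2 RV over LV of 8 of the 12 was above 0, as was that of 49.8% of all regions, with a median of 0.14 over the 12 and -0.0028 over all regions. Summed over the 12 regions there were 123 and 112 normalized reads in RV libraries A and B, against 104 and 96.7 in LV libraries A and B. The log2 RV over LV of the sums was 0.23. How often both RV sums exceed both LV sums at other genes was not worked out. The difference between the sums was not tested, so that it gives no direction for Hand2.

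**Figure D3:**
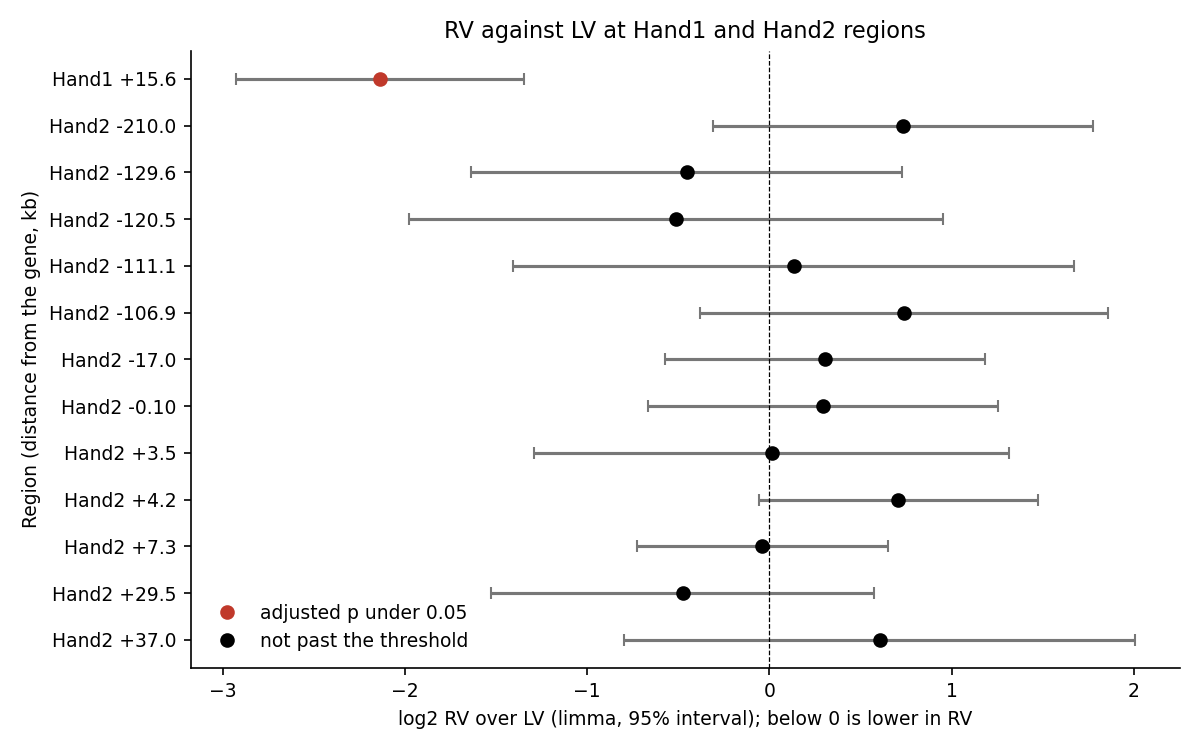
log2 RV over LV from limma (horizontal axis, negative is lower in RV) with its 95% interval for the Hand1 region and the 12 Hand2 regions, named by distance of the summit from the gene in kb; the red point passed an adjusted p of 0.05. The Hand1 interval runs from -2.93 to -1.35, and every Hand2 interval includes 0.

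Set against length, the Hand1 region was at opposite ends of the order in the ventricles. Per kb of region it had 11.3 ± 3.13 normalized reads in RV, the lowest of the 13 regions, and 55.7 ± 12.2 in LV, the highest (SD, n = 2 pools each). In RV the order was led by the region 4227 bp downstream of Hand2 (55.0 ± 7.98 per kb), followed by the promoter (39.3 ± 21.8) and the end of Hand2os1 (36.1 ± 8.28). In LV the Hand1 region was followed by the Hand2 promoter (33.6 ± 24.8), the lower-coordinate end of Hdnr (32.9 ± 5.11) and the region 4227 bp downstream (32.9 ± 7.41). Neighbours in these orders mostly did not differ beyond their spread: in LV the promoter had 51.1 per kb in library A, within the range of the Hand1 region (47.1 and 64.4). In RV the region next above Hand1, 111148 bp upstream of Hand2, had 14.8 ± 1.12 per kb, a difference close to the SD of the Hand1 value.

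**Figure D4:**
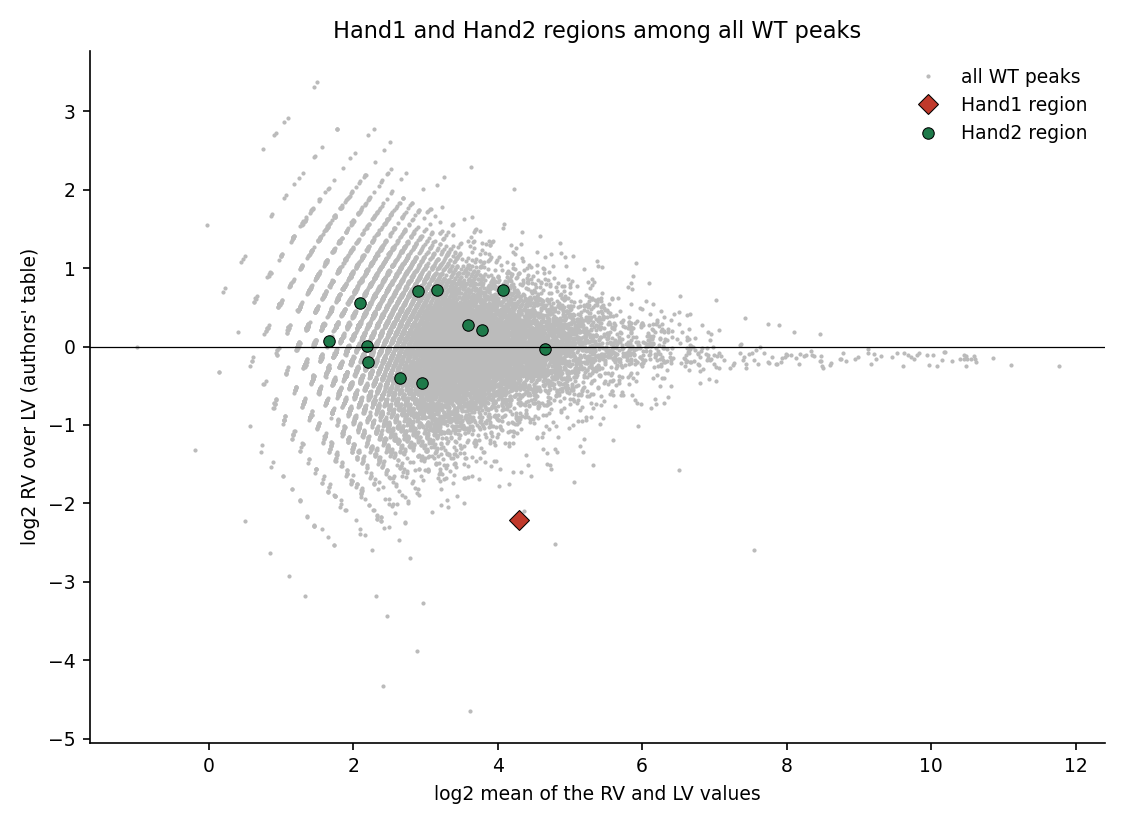
log2 RV over LV of the authors' deposited table (vertical axis) against the log2 mean of the RV and LV values (horizontal axis) for 17587 WT peaks (grey), the Hand1 region (red diamond) and the 12 Hand2 regions (green circles). The Hand1 region sits at -2.21, at the lower edge of the regions with similar means, and the Hand2 regions lie between -0.46 and 0.72 within the grey cloud.

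Genes that act with Hand1 and Hand2 were taken as lists. Peaks were assigned to them by the same rule, the nearest protein-coding gene at any distance. Over all protein-coding genes, 7083 of 21900 had a WT peak, and no list was tested against this share. Of 7 genes of the left ventricle and first heart field, 6 had a WT peak, with 31 regions in all, of which limma called 2 lower and 0 higher in RV (0.0284% of all regions were called lower). At an unadjusted p under 0.05 limma gave 3 lower and 0 higher in RV, where 6.32% of all regions reached it in either direction. The called regions were the Hand1 region already given and 1 at Tbx5, a T-box factor that is needed to form the left ventricle. The list was chosen with earlier results of these data known, so that its count of calls is no independent support. The Tbx5 region (chromosome 5, 119796420 to 119796866, fold enrichment 6.46) had 4.33 and 7.72 normalized reads in RV, against 37.2 and 24.9 in LV (limma log2 -2.21, SE 0.402, adjusted p = 0.0186). It was 1 of 9 WT peaks of Tbx5, whose median log2 RV over LV was -0.44 in the authors' deposited table. The strongest of the 9 (9.04) had 0.12 there (limma log2 0.14, SE 0.325, adjusted p = 0.974). The strongest peaks of this list were those of Gja5, a gap junction gene (13.7, 9423 bp from the gene), and Nppa, a natriuretic peptide gene (10.1, 259 bp). Their log2 RV over LV was -0.20 and -0.42 in the authors' deposited table, and Cited1 had 0 peaks. The median over the 31 regions was -0.24 in that table, against -0.0028 over all regions.

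Of 11 genes of the right ventricle and second heart field, 9 had a peak, with 44 regions. Of these, limma called 0 in either direction, where it called 0.0284% of all regions lower and 0% higher in RV. At an unadjusted p under 0.05 limma gave 1 lower and 2 higher in RV, where 6.32% of all regions reached it. The median log2 RV over LV of the 44 in the authors' deposited table was -0.14, with 27 regions below 0 and 17 above. Hand2, with a median of 0.14, had 12 of the 44 regions. The highest fold enrichments were at peaks assigned to Tbx20, a T-box repressor (14.6), and Smyd1, a muscle methyltransferase gene upstream of Hand2 (8.95). Next came those of Mef2c, a MADS-box factor (7.66), and Wnt11, a Wnt ligand (6.60). Their summits lay 114134 bp from Tbx20, 97 bp from Smyd1, 392338 bp from Mef2c and inside Wnt11. The genes without a peak were Fgf8 and Tdgf1. Among the 44 regions 1, assigned to Tbx20, overlapped a knockout peak, as did 1.12% of all WT peaks.

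All 13 genes listed as upstream regulators of HAND genes had a peak, with 72 regions. Of these, limma called 1 lower in RV (the Tbx5 region above) and 0 higher, where it called 0.0284% and 0% of all regions. At an unadjusted p under 0.05 limma gave 3 lower and 2 higher in RV, where 6.32% of all regions reached it in either direction. The strongest peaks of these genes were those of Tbx20, Nkx2-5, a cardiac homeobox factor (9.11), Tbx5 (9.04) and Smyd1. Of 8 partners of HAND proteins 6 had a peak, with 32 regions and 0 calls by limma (2 at an unadjusted p under 0.05, both lower in RV, where 6.32% of all regions reached it). The strongest peaks of these partners were those of Fhl2, a LIM-domain protein that restrains HAND1 (12.7, 49426 bp from the gene), and Nkx2-5 (24006 bp). Next came those of Tcf4, an E protein (8.71, inside the gene), and Mef2c, and Tcf3 and Ppp2r5d had none.

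Lists of cell type markers gave peaks at 7 of 7 cardiomyocyte genes, 5 of 5 of endocardium and endothelium, 2 of 4 of epicardium, 3 of 4 of fibroblasts and valve mesenchyme and 0 of 4 erythroid genes. Over all protein-coding genes the count was 7083 of 21900. Peaks do not measure expression, so that the labelled tissue could not be checked by its markers, and the cell types in which the Hand regions were bound were not measured.

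The genes whose pattern over the 4 RV and LV libraries was most like that of Hand1, by Euclidean distance of centred log2 values among 4979 genes with 1 or 2 peaks, were Crb1 (distance 0.351), Stom (0.529) and Cdh9 (0.584). Crb1 had 0.866 and 1.93 normalized reads in RV, against 5.95 and 11.7 in LV, far fewer than the Hand1 region. Among 679 genes with 6 to 24 peaks, those most like Hand2 were 1700025G04Rik (0.0302), Serp2 (0.0553) and Gas7 (0.0733). These are descriptions over 4 libraries.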

How the data were processed

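PRDM16 ChIP and input libraries of mouse ventricles fall into 14 samples in 8 groups by their labels. Per the submitters' processing notes, which give no role or order, the tools include DESeq2, HOMER, MACS2 2.1.1.20160309 and BWA 0.7.12-r1039, and the builds mm10 and GRCm38. The sources used here do not give the pooling behind the peak lists or which test gave the table's p-values. The deposited peak lists hold a score, the fold enrichment (a ratio), the -log10 q and a summit offset per peak. The deposited table holds RV and LV signal, log2 values, and a p-value and adjusted p-value per region, per the file headers. The fold changes there are RV over LV.

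Each RV or LV value was 0.5 plus a mean over libraries of whole reads, each scaled by a factor, which gave 1 solution for every region (tolerance 1e-07). Normalized reads per read were 0.866 and 0.965 in RV libraries A and B and 0.744 and 1.47 in LV libraries A and B, and reads within WT peaks were 281797 and 267808 in RV and 330443 and 184244 in LV. In each ventricle, A names the library with the smaller factor. The letters carry no replicate number and do not pair libraries across ventricles. Intervals from limma rest on 2 libraries per ventricle and on a variance drawn in part from all regions.

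limma 3.58.1 (R 4.3.3) was fitted with a mean-variance trend to log2 values (normalized reads, pseudocount 1) over all 17587 regions, with Benjamini-Hochberg adjustment and a threshold of 0.05, and was tested on simulated data. Peaks were assigned by summit to 21900 protein-coding genes of a RefSeq table (GRCm38.p6). Both HAND genes were found there, and the promoter table held 1 of them, Hand2. Python 3.11.15, pandas 2.3.3, numpy 2.4.6 and matplotlib 3.10.9 were used. Named are all 13 peaks, up to 3 protein-coding genes on each side of each HAND gene, the 3 genes most like each, and from each list the genes with a called region and otherwise at most 4 of highest fold enrichment. Members and lists were chosen with earlier results of these data known. Alternatives were the pseudocount, a read minimum, scaling, each library left out, assignment, peak thresholds and overlap.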

Additional observations from a re-analysis of the deposited data

How the results depend on the processing

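Hand1 was the nearest gene of 0 peaks and Hand2 of 1 peak when genes of any type were counted, because lncRNA genes lie nearer, and 2 and 7 summits lay within 50000 bp of them. The counts were 1 and 8 among peaks whose -log10 q reached 5, and 1 and 2 among those whose fold enrichment reached 5. No Hand peak overlapped a knockout peak at either other setting (at least 0.5 of the WT peak covered, or a knockout peak within 1000 bp). At an unadjusted p of 0.05, 1 of the 13 regions (Hand1) passed in the authors' deposited table.

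The log2 RV over LV of the Hand1 region by limma kept its sign under all 10 alternatives, and 6 of them passed the threshold, with adjusted p of 0.00171 to 0.992 over the 10. It was -2.29 at a pseudocount of 0.1, which did not pass (adjusted p = 0.125), and -2.38 to -1.89 with each library left out, where a lone library is assumed to vary like the others. With either RV library left out, limma called 0 regions in all, although 5 were called with all libraries. It called 90 without LV library A, 22 without LV library B, 17 with voom, 14 at a pseudocount of 5 and 1 at a pseudocount of 0.1, and the cause was not tested. limma voom and a pseudocount of 0.1 were chosen after seeing the data, and with voom the Hand1 region passed (adjusted p = 0.00452). limma called 0 Hand2 regions under each of the 10 alternatives (lowest adjusted p 0.386). Of 113 alternative log2 values of single Hand2 regions, 8 moved by more than 1 SE, all with a library left out. Region depth, a median of 8.25 reads per library over all regions, limits what can be seen at single regions. No paired analysis was possible because the library letters carry no replicate number.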

Other observations

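Fbxo8, an F-box gene and the next protein-coding gene at lower coordinates than Hand2, had 5 WT peaks assigned to it. The strongest of them (chromosome 8, 56623237 to 56623706, fold enrichment 6.54, 29671 bp from Fbxo8) had values of 22.4 in RV and 12.7 in LV in the authors' deposited table (log2 0.82, limma adjusted p = 0.749).

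Of 10 other tissue-restricted bHLH genes, 2 had a WT peak (7083 of 21900 over all protein-coding genes), with 4 regions in all. These were Hey2, a repressor found in compact myocardium and a target of Notch signalling, and the related Heyl. Hey2 had 3 peaks (strongest fold enrichment 12.2, 210670 bp from the gene), and Heyl had 1 peak inside the gene (4.46). Their strongest regions had log2 RV over LV of -0.22 and 0.08 in the authors' deposited table, and limma called 0 of the 4. Twist1, Twist2, Tcf21, Hey1, Msc, Tcf15, Scx and Mesp1 had 0 peaks.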
